A study of Mus musculus with 3 samples.

Results

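Sphingosine-1-phosphate (S1P) is a lipid that is abundant in blood and lymph and scarce inside tissues, and lymphocytes follow this gradient to leave the thymus, lymph nodes and inflamed organs. The genes described here are S1pr1, S1pr2, S1pr4 and S1pr5, which encode G protein-coupled receptors for S1P, and Cd69, which encodes an early activation antigen that binds S1PR1 and takes it off the cell surface. They were taken by gene symbol as every probe set that the array annotation assigns to exactly 1 of these symbols, which gave 6 probe sets of 34945 single-symbol probe sets, for 5 genes of 18193. S1pr2 had 2 probe sets and each other gene had 1. No selectin gene is among the 5.

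The study profiled CD8+ T cells of mice whose T cells cannot respond to transforming growth factor β (TGF-β), on 3 Affymetrix mouse expression arrays. The NK1.1+ KO array held NK1.1+ CD8+ T cells and the NK1.1− KO array NK1.1− CD8+ T cells, both sorted from Tgfbr2fl/fl x CD4-Cre mice aged 15 to 17 days. The control array held CD8+ T cells of Tgfbr2fl/WT x CD4-Cre littermates. The Cre transgene and at least 1 floxed Tgfbr2 allele were thus shared by all 3 groups, and no group was free of Cre. Cre under the Cd4 promoter acts from the thymocyte stage in all T cells that pass through Cd4 expression, so it is not limited to CD8+ cells. The control title and part of the design text call the control cells NK1.1−, whereas another part of that text calls them total CD8+ cells. The labels do not say how many mice gave the RNA of an array. Each group had 1 array, so differences are between single arrays, with no replicate check, no error and no test. In bulk RNA, fewer cells that carry a transcript and less transcript per cell cannot be told apart.

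Values are probe set intensities on a linear scale. A value was taken as measured at 9.67 or above, the 95th percentile of 143 probe sets of genes that T cells do not use, and values below it were raised to it before log2 differences were taken. A gene was called higher or lower at a difference of at least 2-fold. The Tgfbr2 probe set that was measured on every array read 1808 (NK1.1+ KO), 1271 (NK1.1− KO) and 2634 (control), and it may lie outside the deleted part. All 9 T cell markers examined were measured on each array. On the NK1.1+ KO array 7 of them were called lower than on the control array, as were 5 of 9 housekeeping genes (median log2 difference -1.09, against 0.056 for NK1.1− KO over control). These calls and medians use the brightest probe set of each gene. Over all measured probe sets Cd8a ranged from -3.59 to 0.028, Pgk1 from -1.32 to 0.12 and Sdha from -1.96 to -0.39, whereas Gusb stayed between -1.66 and -1.56. The ratio of 3′ to 5′ Actb probe sets was 81.9 on the NK1.1+ KO, 12.3 on the NK1.1− KO and 6.02 on the control array, a ratio that is higher where less of the 5′ end of the transcript was labelled. The same ratio for Gapdh had another order, 10.8 (NK1.1+ KO), 26.7 (NK1.1− KO) and 17.8 (control). Array control probe sets were also highest on the NK1.1+ KO array. The geometric mean of hybridisation controls was 4498 (NK1.1+ KO), 1786 (NK1.1− KO) and 1905 (control), and that of poly-A controls 1012, 126 and 324 in the same order. Centring on the housekeeping genes subtracts -1.09 from each log2 difference of NK1.1+ KO over control and -0.87 from each of NK1.1+ KO over NK1.1− KO. Centring on 8884 genes measured on all arrays subtracts -0.27 and -0.34. Smaller differences that involve the NK1.1+ KO array therefore depend on the scaling. The part of these array differences in the values below was not tested beyond the scalings given beside them.

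All 5 genes were measured on all 3 arrays. S1pr5 was far higher in both KO fractions than in control cells, S1pr1 was lower in both, and S1pr4 and Cd69 differed by less than 2-fold in every comparison. S1pr2 reached 2-fold above control in both KO fractions by 1 of its 2 probe sets only. S1pr5 was also higher in the NK1.1+ than in the NK1.1− KO fraction, and it was the only one of the 5 genes that passed 2-fold between these fractions.

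**Figure D1:**
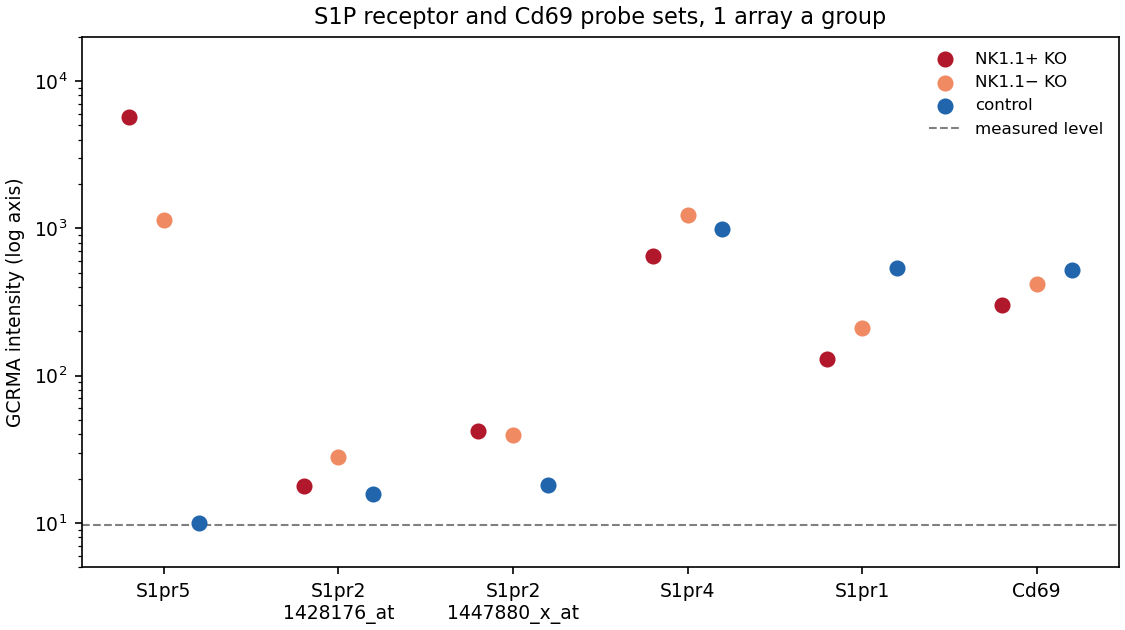
Intensity (log axis) of each probe set of the 5 genes, with 1 point for each array (NK1.1+ KO, NK1.1− KO, control) and a dashed line at the measured level of 9.67. The S1pr5 points lie at 5741, 1148 and 10.05, the control point next to the dashed line, while the S1pr4 and Cd69 points lie close together.

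For NK1.1+ KO over control, 2 of the 5 genes were called higher (S1pr5 and S1pr2) and 1 lower (S1pr1), where 9.86% of 10624 measured genes were called higher and 22.9% lower. The lower count, 1 of 5, was near that background. The split of all calls was 1047 higher and 2429 lower. It was 1485 and 1794 when centred on genes measured on all arrays, 1313 and 1932 after quantile normalization and 4934 and 596 when centred on housekeeping genes. Set against control, NK1.1− KO cells had the same 2 genes called higher and the same 1 lower, against 8.06% higher and 5.57% lower among 10037 genes. Both counts include the same control array, so they are not separate observations. Between the fractions, NK1.1+ KO over NK1.1− KO, 1 of the 5 was called higher and 0 lower, against 6.54% higher and 21.3% lower among 10613 genes. That split was 694 higher and 2261 lower, or 1202 and 1401 centred on genes measured on all arrays, 937 and 1688 after quantile normalization and 2956 and 557 centred on housekeeping genes. The median log2 difference of the 5 genes was -0.61, 0.31 and -0.47 in the 3 comparisons, in the same order, beside -0.17, 0.010 and -0.24 for all genes. Counts for gene lists below are to be read against these shares of all genes.

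**Figure D2:**
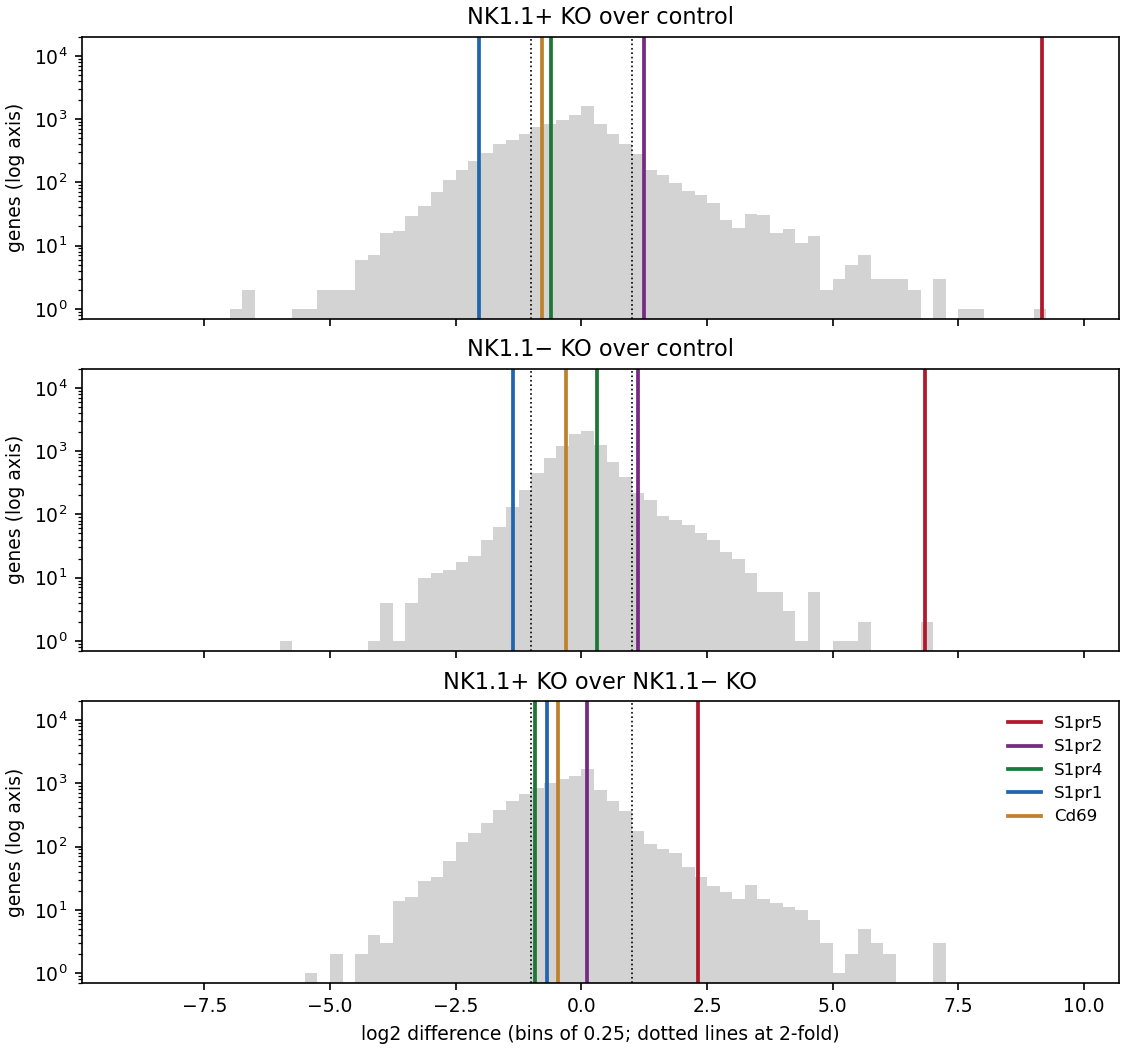
Log2 differences of all measured genes in the 3 comparisons (grey bars, bins of 0.25, log count axis), with a coloured line for each of the 5 genes and dotted lines at 2-fold. S1pr5 lies at 9.16 and 6.84 at the right edge of both distributions against control and at 2.32 between the KO fractions. S1pr1 lies beyond 2-fold on the left against control, with 5.92% (NK1.1+ KO) and 2.49% (NK1.1− KO) of genes below it. S1pr2 lies beyond 2-fold on the right there, and S1pr4 and Cd69 lie between the dotted lines.

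S1pr5 encodes S1PR5, the receptor that natural killer (NK) cells use for exit and that effector CD8+ T cells and patrolling monocytes also carry. Its probe set, 1449365_at, read 5741 (NK1.1+ KO), 1148 (NK1.1− KO) and 10.05 (control). The control value lay just above the measured level, and the NK1.1+ KO value was the highest of the 3. The fold was 571 for NK1.1+ KO over control and 114 for NK1.1− KO over control, or 9.16 and 6.84 on the log2 scale. These folds rest on a control value at background. With a level of 11.7, obtained when 3 genes with crystallin-like domains were kept in the set of unused genes, they were at least 491-fold and at least 98.1-fold. Raising the level to 54.5, the 75th percentile over all probe sets, gave log2 differences of at least 6.72 and 4.40, and with an offset of 32 they were 7.10 and 4.81. Among 10624 genes measured on either array, none had a larger positive difference for NK1.1+ KO over control than S1pr5. Among 10037 for NK1.1− KO over control, 1 did, Gzma, the gene of granzyme A, a protease of killer cell granules. That first place depended on the level: with the level of 54.5, 2 genes stood above S1pr5 for NK1.1+ KO over control, Gzma and Csf1r, and with the offset 1 did, Gzma. In the NK1.1− KO comparison with control 3 and 2 genes stood above it under these settings. Between the fractions S1pr5 was 5.0-fold higher in NK1.1+ KO than in NK1.1− KO cells, and 183 of 10613 genes had a larger positive difference (55 of 7034 with the level of 54.5).

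S1pr2 encodes S1PR2, a receptor that couples to RhoA and holds cells back from S1P. Its brighter probe set, 1447880_x_at, read 42.3 (NK1.1+ KO), 39.3 (NK1.1− KO) and 17.9 (control), that is 2.36-fold and 2.19-fold higher than in control. Its other probe set, 1428176_at, read 17.8 (NK1.1+ KO), 27.9 (NK1.1− KO) and 15.7 (control), that is 1.13-fold and 1.77-fold higher. Both probe sets placed both KO fractions above control, but they differed on which fraction was higher and on whether 2-fold was reached. The first carries a suffix that marks probes shared with other sequences. All 6 S1pr2 values were below 54.5, so S1pr2 is dim on these arrays.

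Promoters from RefSeq (build GRCm38.p6, 250 bases before to 50 after the gene start) were matched for 3 of the 5 genes, S1pr2, S1pr4 and S1pr5. Those of the genes with a higher call in both KO fractions are printed because the factors T-bet, ZEB2 and KLF2 are known to act on S1P receptor genes. Capitals mark the motifs searched on both strands. These were the T-box core GGTGTGA, the E-box CAGGTG bound by ZEB factors and the KLF core CACCC. A T-box core can overlap an E-box or a KLF core.
S1pr5, chr9:21248394-21248693, minus strand: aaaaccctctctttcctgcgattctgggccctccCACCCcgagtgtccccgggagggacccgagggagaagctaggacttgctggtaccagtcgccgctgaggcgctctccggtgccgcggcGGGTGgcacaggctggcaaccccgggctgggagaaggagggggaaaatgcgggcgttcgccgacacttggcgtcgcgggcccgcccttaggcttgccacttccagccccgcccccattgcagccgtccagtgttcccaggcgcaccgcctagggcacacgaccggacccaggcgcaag
S1pr2, chr9:20976744-20977043, minus strand: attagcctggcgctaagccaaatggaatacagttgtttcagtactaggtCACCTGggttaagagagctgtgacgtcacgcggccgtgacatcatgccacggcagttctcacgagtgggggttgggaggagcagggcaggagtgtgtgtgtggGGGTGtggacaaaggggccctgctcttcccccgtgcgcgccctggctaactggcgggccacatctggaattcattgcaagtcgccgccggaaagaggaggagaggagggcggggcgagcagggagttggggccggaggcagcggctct
The S1pr5 window held 2 KLF cores, no E-box and no T-box core, and 69.3% of its bases were G or C. The S1pr2 window held 1 E-box and 1 KLF core, with 62% G or C, and so did the S1pr4 window, with 41% G or C. Of 32851 promoters of the same length, 57.5% held a KLF core, 20.2% the E-box and 3.98% the T-box core. The KLF core is thus found in most promoters, and a match or its absence in these windows says nothing about binding elsewhere at these genes.

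S1pr1 encodes S1PR1, the main receptor by which naive and recirculating T cells leave lymphoid organs. Its probe set, 1423571_at, read 130 (NK1.1+ KO), 210 (NK1.1− KO) and 539 (control). Control cells were highest and NK1.1+ KO cells lowest. S1pr1 was 4.13-fold (NK1.1+ KO) and 2.57-fold (NK1.1− KO) below control, and the KO fractions differed by 1.61-fold. Of the measured genes, 629 of 10624 had a more negative difference in the first comparison and 250 of 10037 in the second. The NK1.1+ KO call depended on scaling: centred on housekeeping genes the log2 difference was -0.96, under 2-fold, in place of -2.05. Between the fractions that centring gave 0.18 in place of -0.68. The NK1.1− KO difference ranged between -1.42 and -1.24 over the 9 alternatives. Only the offset, quantile normalization and the centrings could move it, since S1pr1 has 1 probe set, which was above each level used.

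Cd69, the gene of the antigen that holds S1PR1 inside the cell, had no difference of 2-fold. Its probe set, 1428735_at, read 301 (NK1.1+ KO), 417 (NK1.1− KO) and 518 (control). The order of the arrays was the same as for S1pr1, with smaller steps: 1.72-fold below control in NK1.1+ KO cells and 1.24-fold in NK1.1− KO cells. Centred on housekeeping genes, the NK1.1+ KO difference from control was 0.30 in place of -0.78 on the log2 scale, so its direction was not settled.

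S1pr4 encodes S1PR4, a receptor found mainly in lymphoid and myeloid cells. Its probe set, 1451024_at, read 648 (NK1.1+ KO), 1225 (NK1.1− KO) and 990.4 (control). NK1.1+ KO cells were 1.53-fold lower and NK1.1− KO cells 1.24-fold higher than control cells. The largest S1pr4 difference was between the fractions, 1.89-fold lower in NK1.1+ KO than in NK1.1− KO cells. Centred on housekeeping genes, the NK1.1+ KO difference from control was 0.48 in place of -0.61 on the log2 scale, and that between the fractions -0.053 in place of -0.92.

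Genes whose differences from control in both fractions were closest to those of each of the 5 were found by Euclidean distance over the 2 log2 differences, so over 3 arrays, among 10263 genes. No gene was within 0.5 of S1pr5. Its nearest genes were Gzma at a distance of 1.51, Cx3cr1, the fractalkine receptor gene of circulating effector cells and patrolling monocytes, at 2.54, Smpdl3b at 3.57, Dock5 at 4.19 and Gab2 at 4.28. The control values of S1pr5, Smpdl3b (5.64) and Gab2 (6.53) were at or below the measured level, so these distances depend on it. Gzma read 31856 (NK1.1+ KO), 19886 (NK1.1− KO) and 158 (control), and Cx3cr1 read 2049, 568 and 14.5 in the same order. S1pr1 had 148 genes within 0.5, and the nearest were Tomm40, Rasgrf2, Ltb, Abce1 and Csrp1. Tomm40 (7.68) and Csrp1 (9.15) were below the level in NK1.1+ KO cells, so their differences there are bounds. Ltb, encoding lymphotoxin β, read 341 (NK1.1+ KO), 529 (NK1.1− KO) and 1407 (control). S1pr2 had 202 genes within 0.5 (nearest Mmgt2, Mcm4, Prr5l, Kif1c and Tirap). S1pr4 had 1451 (nearest Naa20, Pithd1, Nedd8, Ola1 and Sf3b5) and Cd69 had 1638 (nearest Ahctf1, Gmeb2, Arf2, Galns and Mto1), so their patterns were common on these arrays.

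Of the 18 genes on the array that encode transcription factors linked to these receptors or to residency and recirculation, all were measured in each comparison. In NK1.1+ KO against control cells 6 were called higher and 5 lower (median log2 difference 0.092), or 9 and 2 centred on housekeeping genes, and in NK1.1− KO against control cells 6 were higher and 7 lower (median -0.43). Klf2, which drives S1pr1, read 1792 (NK1.1+ KO), 1111 (NK1.1− KO) and 1955 (control) and was not called in any comparison on the deposited scale. Centred on housekeeping genes, its NK1.1+ KO over NK1.1− KO difference was 1.56 in place of 0.69 on the log2 scale. On the deposited scale its lowest value was in NK1.1− KO cells, whereas S1pr1 was lowest in NK1.1+ KO cells. Foxo1, which sustains Klf2, read 1081 (NK1.1+ KO), 1405 (NK1.1− KO) and 2914 (control), 2.70-fold and 2.07-fold lower than control. On the deposited scale its order of arrays was that of S1pr1. Its log2 differences were -1.43 for NK1.1+ KO over control and -0.38 between the fractions. Centring on housekeeping genes subtracts -1.09 and -0.87 from these. The NK1.1+ KO call and the order of the KO fractions therefore depended on the scaling. Other Foxo1 probe sets went down to -2.81 for NK1.1+ KO over control and -1.05 between the fractions.

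Tbx21 encodes T-bet, which is needed for S1pr5 expression in NK cells. It read 1568 (NK1.1+ KO), 2170 (NK1.1− KO) and 192 (control), 8.17-fold and 11.3-fold higher than control. Between the fractions Tbx21 differed by -0.47 on the log2 scale for NK1.1+ KO over NK1.1− KO, or by 0.40 centred on housekeeping genes, so its direction there was not settled. Zeb2, encoding a repressor that acts with T-bet in terminal effector cells, read 627 (NK1.1+ KO), 58.8 (NK1.1− KO) and 7.38 (control) by its brightest probe set. It was at least 64.8-fold (NK1.1+ KO) and at least 6.08-fold (NK1.1− KO) above control, and its order of arrays was that of S1pr5. Its 5 probe sets ranged from 2.05 to 6.02 on the log2 scale in the first comparison and from 1.11 to 2.88 in the second. Eomes, encoding a T-bet relative, read 734 (NK1.1+ KO), 2085 (NK1.1− KO) and 593 (control) and was 3.52-fold above control in NK1.1− KO cells. Prdm1, encoding Blimp-1, was 5.74-fold and 5.81-fold higher, Runx3 3.61-fold and 2.70-fold higher, and Id2 6.73-fold and 4.30-fold higher, for NK1.1+ KO first and NK1.1− KO second. Id3 was 9.23-fold and 3.54-fold lower in the same order and Bach2, a repressor that preserves the naive state, 6.89-fold and 4.47-fold lower. Other Bach2 probe sets differed by as little as -0.80 and -0.34 on the log2 scale.

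**Figure D3:**
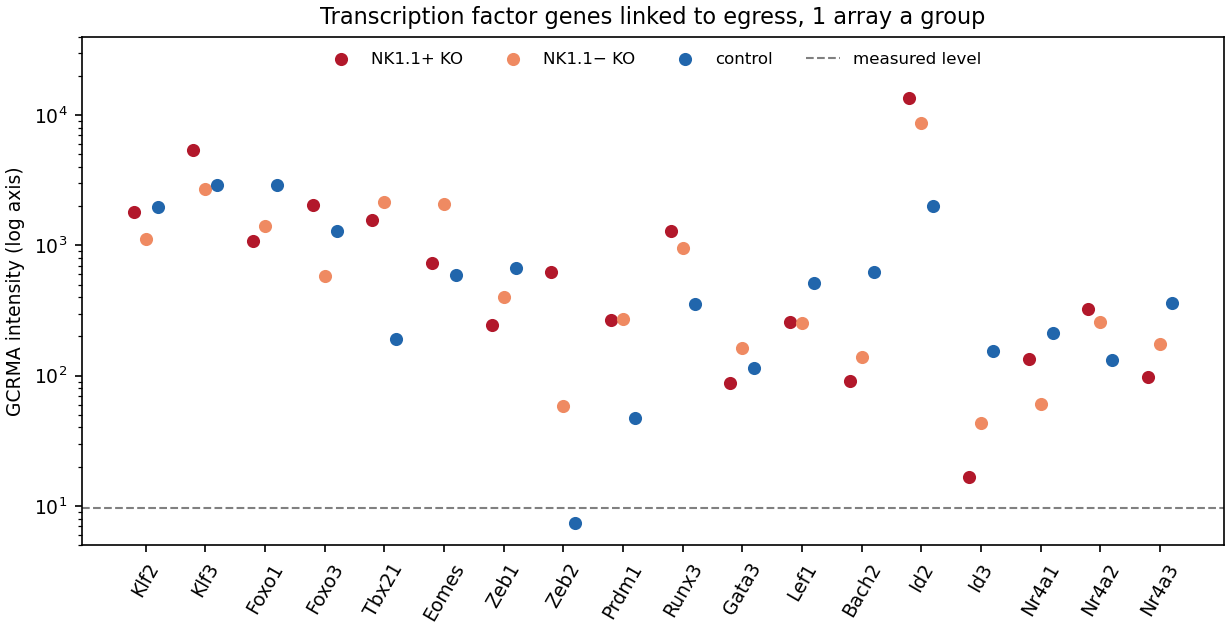
Intensity (log axis) of 18 transcription factor genes by array (NK1.1+ KO, NK1.1− KO, control), with a dashed line at the measured level of 9.67. Tbx21 and Zeb2 lie higher on both KO arrays than on the control array, and the 3 Klf2 points, between 1111 and 1955, lie close together.

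S1P itself is made by sphingosine kinases and degraded by S1P lyase and phosphatases. Of 20 genes of S1P and sphingolipid metabolism and transport, 17 were measured for NK1.1+ KO over control, with 1 called higher and 2 lower (median log2 difference 0.035), or 12 and 0 (median 1.12) centred on housekeeping genes. In the NK1.1− KO comparison with control 15 were measured, with 1 called higher and 0 lower (median -0.081). Sgpl1, which encodes the lyase, read 24.2 (NK1.1+ KO), 44.3 (NK1.1− KO) and 63.1 (control), 2.61-fold below control in NK1.1+ KO cells. Sgpp1, an S1P phosphatase gene, read 647 (NK1.1+ KO), 555 (NK1.1− KO) and 657 (control) and was not called. Sgpp2, its relative, was measured on the NK1.1+ KO array only, at 28.2, at least 2.92-fold above control. Plpp2, a lipid phosphate phosphatase gene, was 2.74-fold above control in NK1.1− KO cells (35.2 against 12.9), and Cers4, a ceramide synthase gene, was 2.94-fold below control in NK1.1+ KO cells (40.7 against 120). For Cers4 another probe set differed by 0.19. The kinase gene Sphk1 and the S1P exporter gene Spns2 were not measured on any array, and Sphk2 read 14.5 (NK1.1+ KO), 11.8 (NK1.1− KO) and 12.5 (control).

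Other receptors for lysophospholipids and related lipids were in part below the measured level. S1pr3, the remaining receptor gene of the S1P family for which probe sets were present, was not measured on any array. Its brightest probe set read 6.21 (NK1.1+ KO), 5.64 (NK1.1− KO) and 5.61 (control). Of the 13 such genes on the array, 7 were measured in each comparison against control, with 0 called higher and 2 lower in both. Centred on housekeeping genes, 4 were higher and 2 lower in NK1.1+ KO against control cells. The lower ones were Gpr183, which encodes the oxysterol receptor EBI2, at 86.5 (NK1.1+ KO), 377 (NK1.1− KO) and 784 (control), and Cnr2, encoding a cannabinoid receptor, at 31.1, 30.7 and 220.5 in the same order. Gpr183 was 9.07-fold and 2.08-fold lower and Cnr2 7.10-fold and 7.19-fold lower than control. Lpar6, Gpr174 and P2ry10 were not called on the deposited scale.

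Behind the receptors, S1PR1 signals through Gi proteins to Rac, S1PR2 through Gα13 and the exchange factor of Arhgef1 to RhoA, and GRK kinases, arrestins and RGS proteins limit the signal. Of 26 such genes on the array, 24 were measured for NK1.1+ KO over control, with 4 called higher and 6 lower (median log2 difference 0.069), or 13 and 1 centred on housekeeping genes, and 23 for NK1.1− KO over control, with 4 higher and 1 lower (median 0.16). Rgs10, whose product shortens Gi signals, read 51.0 (NK1.1+ KO), 106 (NK1.1− KO) and 694 (control), 13.6-fold and 6.57-fold lower than control. Rgs16, of the same family, was 4.04-fold and 3.69-fold higher, although another Rgs16 probe set gave 0.31 on the log2 scale in NK1.1+ KO cells. Grk3 was measured on the NK1.1+ KO array only, at 216 or at least 22.3-fold above control, with other probe sets down to 0.98 on the log2 scale. Rgs2, of the RGS family, read 2396 (NK1.1+ KO), 272 (NK1.1− KO) and 517 (control), 4.63-fold above control in NK1.1+ KO cells. Rgs1, which dampens chemokine responses of activated lymphocytes, was 2.82-fold above control in NK1.1− KO cells.

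Among selectins and their partners, Selplg, which encodes the P-selectin ligand PSGL-1, read 2361 (NK1.1+ KO), 2459 (NK1.1− KO) and 2744 (control). Adam17, encoding a protease that sheds cell surface proteins, read 1092 (NK1.1+ KO), 1263 (NK1.1− KO) and 797 (control). Neither was called. Of 11 genes of this list on the array, 4 were measured for NK1.1+ KO over control and 1 was called higher, Gcnt1, encoding an enzyme that builds the sugar bound by selectins, at 31.5 against 9.73. The control value was at background, and with the level of 11.7 the fold was at least 2.69. Centred on housekeeping genes, 3 were higher and 0 lower in NK1.1+ KO against control cells. In NK1.1− KO against control cells 3 were measured and 0 were called. The endothelial selectin genes Sele and Selp were not measured on any array.

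Receptors that direct T cells into or hold them in tissue were set beside the egress genes. Of 15 such homing and integrin genes, 6 were called higher and 4 lower than control in NK1.1+ KO cells (median log2 difference 0.79), and 6 higher and 3 lower in NK1.1− KO cells (median 0.69). Among all genes 9.86% were higher and 22.9% lower in NK1.1+ KO cells, and 8.06% and 5.57% in NK1.1− KO cells. The lower count in NK1.1+ KO cells was near that background. Centred on housekeeping genes, 9 were higher and 3 lower in NK1.1+ KO cells (median 1.88). Ccr7, which guides naive T cells into lymph nodes and opposes their exit through S1PR1, was at least 114-fold (NK1.1+ KO) and 16.4-fold (NK1.1− KO) below control. Itgae, whose αE integrin holds T cells in epithelium, was 20.8-fold and 9.97-fold lower, and Ccr9, a gut homing receptor gene, 19.6-fold and 7.93-fold lower, although another Ccr9 probe set gave 0.67 on the log2 scale in NK1.1+ KO cells. Cx3cr1 was 141-fold and 39.1-fold above control. Of 14 measured activation markers, beside which Cd69 may be read, 0 were called higher and 7 lower than control in NK1.1+ KO cells (median -1.01), beside 22.9% lower among all genes. Centred on housekeeping genes, 2 were higher and 5 lower (median 0.077). The largest of these was Ctla4, encoding an inhibitory receptor, at 63.2 (NK1.1+ KO), 1344 (NK1.1− KO) and 1189 (control). In NK1.1− KO against control cells 3 were higher and 1 lower (median 0.032), led by Pdcd1 at 2.85-fold and Icos at 2.26-fold higher and Myc at 2.62-fold lower. Of the Clec2 lectin genes related to Cd69, 3 of 6 were measured and 0 were called in any comparison on the deposited scale.

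Between the KO fractions, genes of these lists were more often called lower than higher in NK1.1+ KO cells, as were genes at large on the deposited scale. The counts, higher then lower, were 2 and 5 of 24 measured for receptor signalling, 2 and 3 of 17 for S1P metabolism, 2 and 6 of 15 for homing and integrins, 0 and 8 of 14 for activation markers and 0 and 1 of 8 for lysophospholipid receptors. Among all genes 6.54% were higher and 21.3% lower, and the lower counts for receptor signalling and S1P metabolism were near that share. The transcription factor genes went the other way on the deposited scale, with 4 higher and 2 lower of 18. Centred on housekeeping genes these counts were 5 and 0, 9 and 0, 7 and 3, 3 and 5, 3 and 1 and, for the transcription factor genes, 8 and 0, so that on that scale more genes were higher than lower in each list but the activation markers. On the deposited scale the higher transcription factor genes were Zeb2 (10.7-fold), Foxo3 (3.56-fold), Nr4a1 (2.20-fold) and Klf3 (2.02-fold). However, the 6 measured Klf3 probe sets ranged from -1.09 to 1.01 on the log2 scale and the 5 of Zeb2 from 0.94 to 3.41. The lower ones on that scale were Eomes (2.84-fold) and Id3 (2.61-fold). Gpr183 was 4.36-fold lower and Rgs2 8.80-fold higher in NK1.1+ KO cells than in the other fraction.

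S1pr5 is also known from NK cells and patrolling monocytes, and markers of both were examined beside it. On the NK1.1− KO array the markers of monocytes and macrophages were near control: their summed intensity over 9 genes was 128 (NK1.1− KO) and 101 (control), 3 were measured on each array and 0 were called. Csf1r read 54.5 (NK1.1− KO) and 30.5 (control), Lyz2 23.4 and 23.7, and Treml4 and Ace, markers of patrolling monocytes, were below the measured level on both arrays. On the NK1.1+ KO array the same 9 genes summed to 8484 against 101 in control cells, with 6 measured on that array and 4 of 6 called higher. Most of that sum came from Csf1r, which read 7666 there. Its 3 probe sets ranged from 1.88 to 7.97 on the log2 scale for NK1.1+ KO over control. Treml4 read 516 on the NK1.1+ KO array. Also called higher were Lyz2 at 541 (NK1.1+ KO) against 23.7 (control), C1qb at 163 against 9.14, a control value below the level, and Adgre1 at 66.6 against 9.85. The 5 patrolling monocyte markers, which include Cx3cr1 and the broadly expressed Spn, summed to 9678 (NK1.1+ KO), 7213 (NK1.1− KO) and 4103 (control), with 3 called higher than control in NK1.1+ KO cells and, in NK1.1− KO cells, Cx3cr1 called higher and Nr4a1 lower. Cd14, Itgam and C1qa were not measured on any array. The part of these myeloid transcripts in the S1pr5 values was not tested.

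NK cell markers summed to 4620 (NK1.1+ KO), 2475 (NK1.1− KO) and 678 (control) over 7 genes. Without Eomes, which effector T cells also use, the other 6 summed to 3886, 390 and 85.8 in the same order. These 6 are not specific to NK cells either. Tyrobp (1183) and Fcer1g (261 on the NK1.1+ KO array) are also carried by myeloid cells, and Klrk1, Klrc1 and Klre1 by effector T cells. The sums therefore do not separate NK cells from these. Ncr1, the NK cell receptor gene that most defines the lineage, was not measured on any array. Of those measured, 5 of 6 were called higher than control in NK1.1+ KO cells and 4 of 5 in NK1.1− KO cells, among them Klre1 (92.0-fold and 6.85-fold) and Klrc1 (45.6-fold and 8.03-fold). Their part in the S1pr5 values was not tested. Endothelial cells, which carry S1pr1, had 1 of 5 markers measured, Pecam1, on the control array only (46.2), and Cdh5, Kdr, Tek and Emcn were below the level on each array. Of the B cell markers on the array, 2 were called lower than control in NK1.1− KO cells and 1 in NK1.1+ KO cells, with sums over 5 genes of 160 (NK1.1+ KO), 122 (NK1.1− KO) and 284 (control). These markers do not include the immunoglobulin genes Jchain and Igk. Both had a larger positive difference than S1pr5 for NK1.1+ KO over NK1.1− KO, as did the myeloid genes Csf1r and Adgre4. The part of such transcripts in the S1pr5 values was not tested. Dendritic cell markers summed to 134 (NK1.1+ KO), 215 (NK1.1− KO) and 37.4 (control) over 5 genes, nearly all of it from Itgax, and neutrophil markers to 313, 161 and 131 over 3 genes in the same order.

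**Figure D4:**
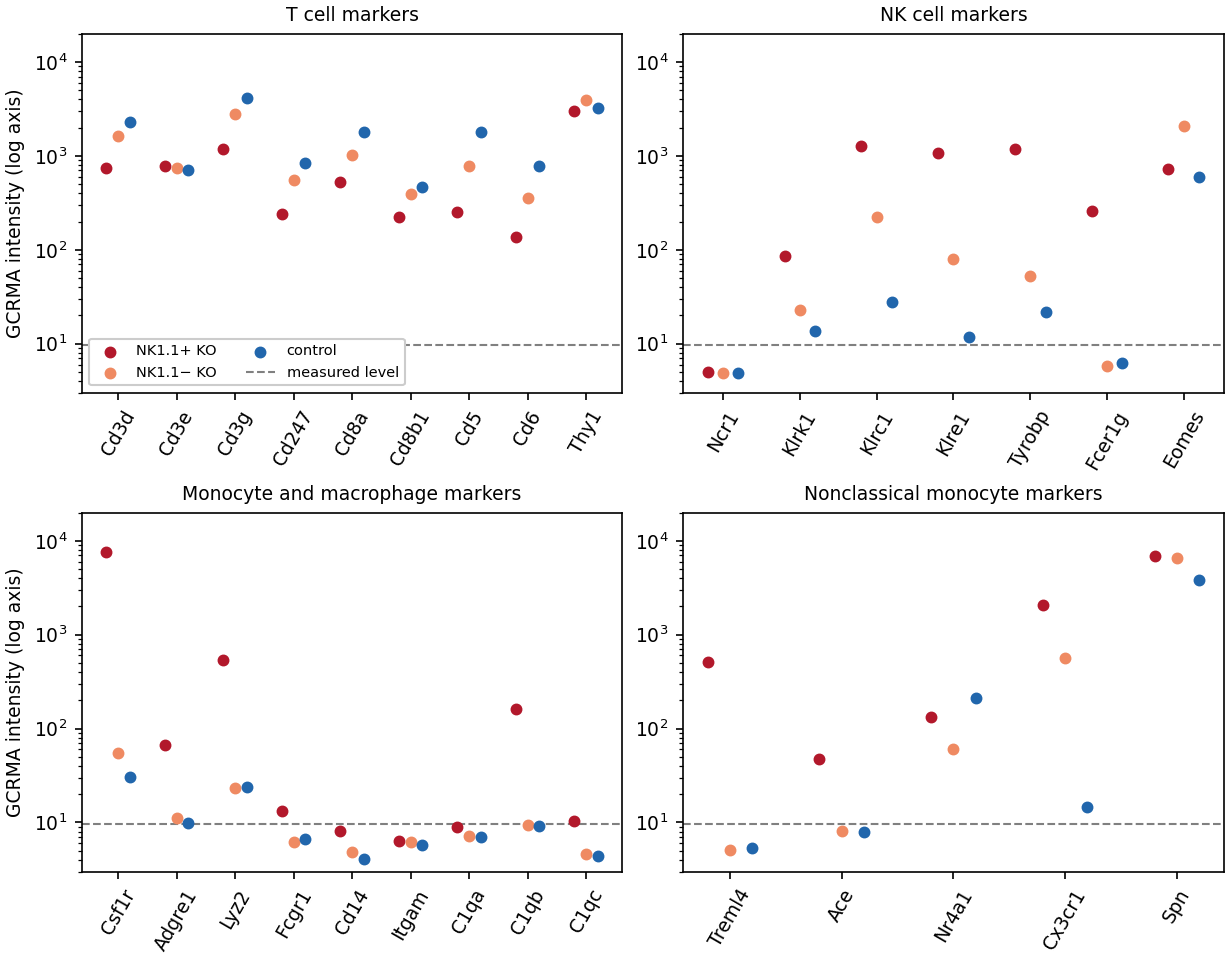
Intensity (log axis) of markers of T cells, NK cells, monocytes and macrophages, and nonclassical monocytes by array (NK1.1+ KO, NK1.1− KO, control), with a dashed line at the measured level of 9.67. Csf1r, Lyz2, C1qb and Treml4 stand far above the other arrays in NK1.1+ KO, and the T cell markers are measured on all 3 arrays.

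**Figure D5:**
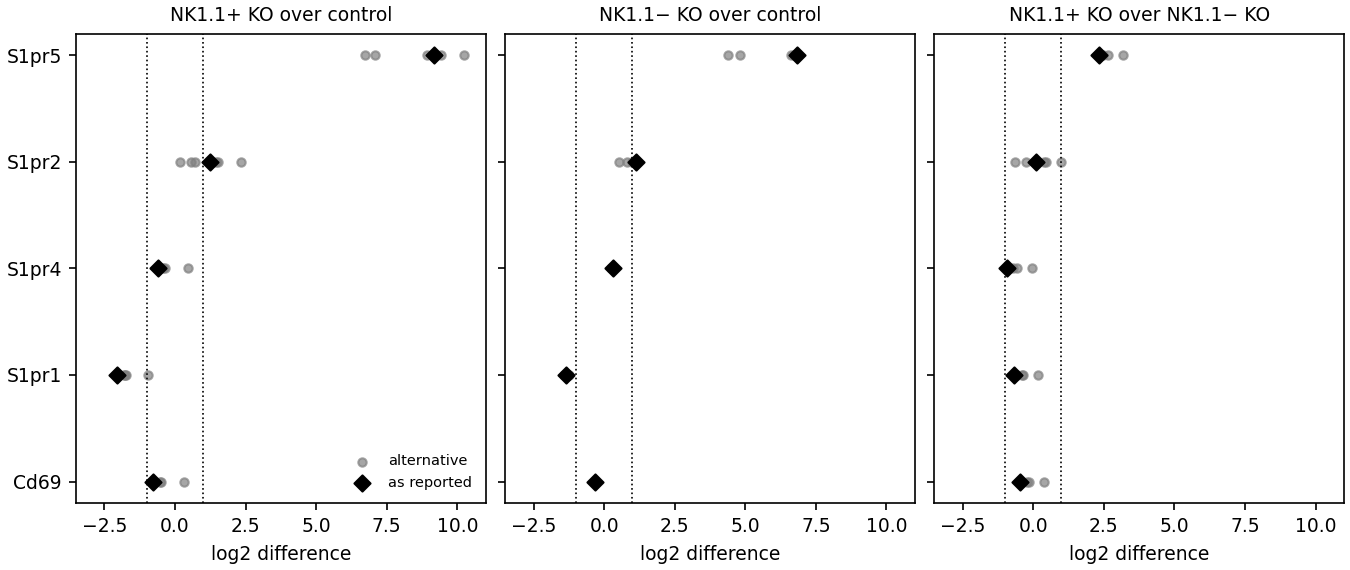
Log2 difference of each of the 5 genes in the 3 comparisons as reported (black diamonds) and under the 9 alternatives (grey points), with dotted lines at 2-fold. S1pr5 stays to the right of 2-fold throughout, S1pr2 straddles it in both comparisons with control, and S1pr1 crosses it once, for NK1.1+ KO over control.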

How the data were processed

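RNA of 3 sorted CD8+ T cell samples was measured on 1 array each. The deposited table gives the linear intensity of each probe set, ranging from 2.60 to 55468 outside array controls. Per the submitters' processing notes the authors used GCRMA, version 1.1.3, and no further step is stated there. Of 45101 probe sets, 34945 had exactly 1 gene symbol in the platform annotation, and Entrez identifiers of 34741 matched RefSeq (GRCm38.p6), with 0 symbols changed. Each gene was represented by its probe set of highest mean. The measured level, 9.67, was the 95th percentile of the values of 143 probe sets for lens crystallins, keratin-associated proteins and taste, olfactory and vomeronasal receptors. With 1 array a group no test was made and precision is limited by that number of arrays. Calls were made at 2-fold over all genes. Named genes were the 5 genes, any member of the metabolism, selectin, regulator and lysophospholipid receptor lists, up to 4 members of each other list by size of difference, the 5 nearest genes in pattern, and markers whose level bears on a result. The genes and lists were chosen with earlier results of these data known. Of the alternatives, 8 were planned and 1 was chosen after seeing the data. Python 3.11.15, numpy 2.4.6 and pandas 2.3.3 were used.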

Additional observations from a re-analysis of the deposited data

Results flagged for a closer look

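S1pr4 moved in opposite directions from control in the KO fractions, with log2 differences of -0.61 in NK1.1+ KO and 0.31 in NK1.1− KO cells. Both are under 2-fold, they share the control array, and the difference between them was not tested. Centred on housekeeping genes both were positive, at 0.48 and 0.25.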

How the results depend on the processing

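Of 132 member differences recomputed under 9 alternatives, 125 kept their side of 2-fold and none that was called changed sign. Many of the 132 could not move, so this count does not measure stability. All 5 genes were above the level on each array, so taking the level away changed no value. The higher levels left S1pr1, S1pr4 and Cd69 unchanged, and the probe set settings could change S1pr2 only. S1pr5 ranged from 6.72 to 10.2 on the log2 scale for NK1.1+ KO over control, from 4.40 to 6.84 for NK1.1− KO over control and from 2.29 to 3.19 between the fractions. S1pr2 was under 2-fold with an offset of 32 (0.57 for NK1.1+ KO and 0.51 for NK1.1− KO over control), with the gene taken as its probe sets' mean (0.71 and 0.98) and without suffixed probe sets (0.18 and 0.83), and could not be measured with a level at the 75th percentile. Under each of these 4 settings 1 of the 5 genes was called higher in either comparison. S1pr1 was under 2-fold for NK1.1+ KO over control when centred on housekeeping genes (-0.96), which left 0 of the 5 called lower. Counts over all genes moved by over 1.5 times as follows, higher then lower. For NK1.1+ KO over control they were 561 and 1489 at the 75th percentile level, 585 and 1485 with the offset, 4934 and 596 centred on housekeeping genes, and 555 higher with the mean of probe sets. NK1.1− KO over control gave 493 and 311, 473 and 238, and, with the mean, 532 and 356. NK1.1+ KO over NK1.1− KO gave 325 and 1299 at that level, 361 and 1202 with the offset, 1202 and 1401 centred on genes measured on all arrays, 2956 and 557 centred on housekeeping genes, and 329 higher with the mean. The cause of these shifts was not tested. The level with crystallin-like domain genes in its set was added after seeing the data and moved no call of the 5 genes. Leaving out a replicate was not possible with 1 array a group. No paired analysis was possible because each group has 1 array. Values near 9.67, such as S1pr5 in control cells and S1pr2, are limited by background signal. Over 3820 genes with several probe sets, the spread between them (pooled SD of log2 differences) was 0.85, 0.42 and 0.76 in the 3 comparisons.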
